A study of Mus musculus with 8 samples.

Results

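The 9 genes described here mark the steps by which new neurons are made in the adult hippocampus, from the stem cell (Nes, Sox2) through the dividing intermediate progenitor and early neuron (Eomes, Neurod1) and the neuroblast (Igfbpl1, Sox4, Sox11, Dcx) to the immature granule neuron (Calb2). They were taken by gene symbol, and all of their probes were kept. This gave 15 probes of the 39429 on the array that were not controls, for 9 of 19751 genes that could be named. Of the 9 genes, 4 had 1 probe, 4 had 2 and Dcx had 3. The samples were full hippocampi, dissected by hand, of C57BL/6J wild type mice that received no treatment and aged in the home cage. Young adult mice (3 months of age, 3M, n = 4) were compared with mice of advanced age (29 months, 29M, n = 4). The labels used here give no sex and do not say whether each sample came from 1 animal, so p-values measure the spread between these samples.

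In the adult mouse brain new granule neurons arise in the subgranular zone, a thin layer of the dentate gyrus. Radial stem cells divide rarely and give rise to intermediate progenitors, which divide quickly and become neuroblasts. These extend processes, migrate a short way and mature into granule neurons that join the circuits for learning and memory. The process is known to decline with age in rodents. In a sample of whole hippocampus these cells are a small minority, and a lower signal from fewer cells of a type cannot be told apart from less RNA per cell.

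Each sample had a 1-colour array of its own, on which the brightness of a spot reports the abundance of 1 transcript. The arrays lay on 3 slides, each with both groups. Slide 1 held 1 array of 3M and 2 of 29M, slide 2 held 1 of each, and slide 3 held 2 of 3M and 1 of 29M. Differences within a slide therefore rest on 1 or 2 arrays per group. Between 76.2% and 85.0% of the spots were well above background, no spot was saturated, and the extraction software marked 1 array, replicate 1 of 3M, for evaluation. Across probes, which are not independent of each other, any pair of arrays had an r of at least 0.992. The 12 markers of hippocampal neurons that were examined, led by Rbfox3 (a nuclear protein of mature neurons) and Snap25 (a synaptic vesicle fusion protein), were all well above background on all 8 arrays. Levels below are normalized log2 intensities, so that a difference of 1 is a doubling, and levels of different probes are not comparable with each other. With 4 arrays per group, precision is limited by their number. Arrays were taken to be of the age given by the sample whose own file holds them. In the authors' table of the whole series, whose values are array backgrounds, 7 of 8 columns hold the background of another sample's array, 4 of them of the other age. Which of the deposited assignments is right was not tested, and all values below rest on that of the samples' own files.

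In the aged hippocampus Igfbpl1 and Sox11, both expressed in neuroblasts, were lower. A probe was called when its p-value, adjusted by Benjamini-Hochberg over all probes, was under 0.1 and its log2 change was at least 0.5 in size (limma). By this rule 2 of the 9 genes were called lower on at least 1 probe, against 0.841% of all genes, and 0 were called higher, against 1.83% of all genes. At an unadjusted p under 0.05 there were 4 member probes lower, against 8.74% of all probes, and 0 higher, against 8.31%. One of the 4, of Dcx, was well above background on 0 arrays. On the brightest probe of each gene, 1 of the 9 (Igfbpl1) was called lower, against 0.648% of all genes, and 0 higher, against 1.57%. In value, 12 of the 15 probes were lower in 29M and 3 were higher. The median log2 change over the 9 genes, on the brightest probe of each, was -0.43, beside 0.01 over all genes, of which 47.1% were lower in value. Only 2 member probes, 1 of Sox11 and 1 of Dcx, had all 29M arrays below all 3M arrays, which held for 5.51% of all probes. In 0 member probes did all 29M arrays lie above, against 5.58% of all probes.

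**Figure D1:**
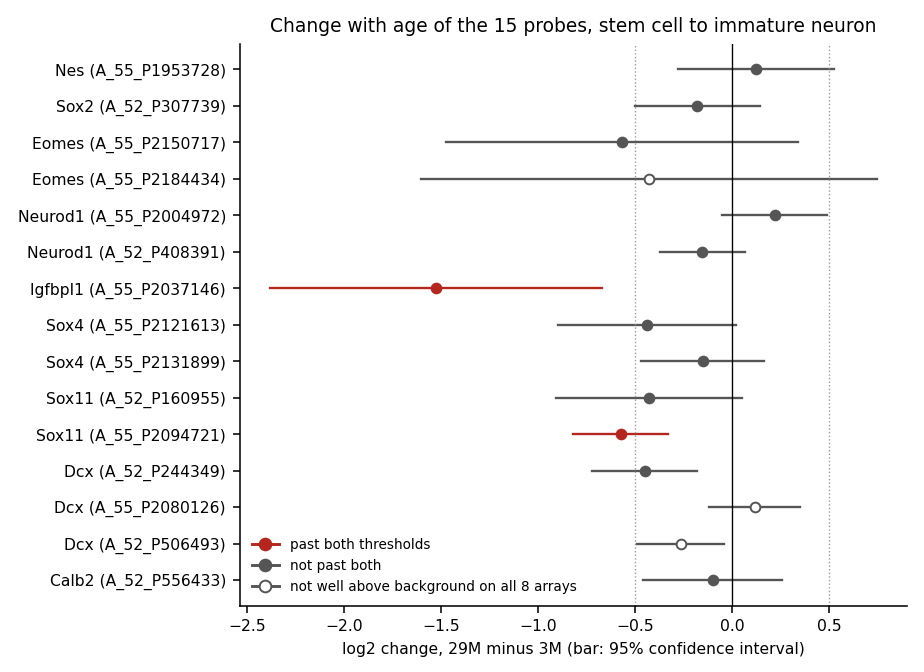
Log2 change from 3M to 29M of the 15 probes of the neurogenesis genes (x axis, bars are 95% confidence intervals from limma, n = 4 arrays per group), ordered from stem cell to immature neuron with the probe names of the array. Red marks the probes of Igfbpl1 (-1.53) and Sox11 (-0.57) that passed both thresholds, open points mark the 3 probes not well above background on all 8 arrays, and dotted lines mark the log2 change of 0.5 in each direction.

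The stem cell markers were not called. Nes encodes nestin, an intermediate filament protein of neural stem cells that is also made by blood vessel cells. In 3M its levels were 11.29, 11.43, 11.16 and 11.69 in replicates 1 to 4, and in 29M they were 11.86, 11.32, 11.76 and 11.11. Of the 29M arrays, 2 lay above the whole 3M range and 1 below it. The change was 0.12 ± 0.18 (SE, adjusted p = 0.776), with a 95% confidence interval from -0.28 to 0.53.

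Sox2, a transcription factor that keeps neural stem cells undifferentiated and is present in astrocytes too, was at 11.64, 12.07, 11.82 and 12.13 in 3M. In 29M it was at 11.97, 11.84, 11.72 and 11.42, so that the groups overlapped and differed by -0.18 ± 0.14 (SE, adjusted p = 0.573). Its interval, from -0.50 to 0.15, contained no change and a fall by 0.50 alike. Of the other 20 genes listed for the stem cell and early progenitor, Vim, an intermediate filament protein of stem cells and reactive astrocytes, rose by 0.98 ± 0.16 (SE, adjusted p = 0.0214) and was called in all 16 alternative fits. Tfap2c, a transcription factor, fell by 0.67 ± 0.13 (SE, adjusted p = 0.0428), but it was well above background on 3 of 4 arrays in 3M and 2 of 4 in 29M, and the call was lost without replicate 2 of 3M or replicate 4 of 29M and under 2 other normalizations. The other 18 were not called, and the median log2 change of the list was 0.03. Of all genes 0.648% were called lower and 1.57% higher on the brightest probe.

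Eomes (also called Tbr2), the transcription factor that defines the intermediate progenitor, was dim and variable. Its brighter probe was at 7.88, 7.51, 6.49 and 8.52 in 3M and at 7.34, 6.29, 7.04 and 7.47 in 29M. Replicate 3 of 3M lay below 3 of the 4 aged arrays, while replicate 4 of 3M lay above all other arrays. The change was -0.57 ± 0.40 (SE, adjusted p = 0.518), with an interval from -1.48 to 0.34. It was -0.94 without replicate 3 of 3M, -0.26 without replicate 4 of that group and -0.32 without replicate 2 of 29M. The other probe, well above background on 3 of 4 arrays in each group, changed by -0.43 ± 0.52 (SE, adjusted p = 0.730), and by -0.87 to -0.07 with 1 array left out.

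Neurod1, a transcription factor that drives progenitors to become granule neurons and that remains on in mature granule neurons, had 2 bright probes that moved in opposite directions. The brighter one was at 11.31, 11.44, 11.44 and 11.35 in 3M and at 11.74, 11.87, 11.31 and 11.52 in 29M. Of its 4 aged arrays, 3 were above the whole 3M range, and the change was 0.22 ± 0.12 (SE, adjusted p = 0.392). The other probe was at 11.55, 11.66, 11.68 and 11.34 in 3M and at 11.43, 11.53, 11.27 and 11.38 in 29M, a change of -0.15 ± 0.10 (SE, adjusted p = 0.473). Neither passed the test, so that no direction can be given for Neurod1.

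Igfbpl1, a secreted protein that resembles the insulin-like growth factor binding proteins and is used as a marker of neuroblasts, had the largest change among the 15 probes. In 3M its levels were 10.07, 10.44, 9.23 and 11.13, and in 29M they were 8.37, 8.20, 8.85 and 9.33. Its mean was 10.21 ± 0.79 in the young group and 8.69 ± 0.51 in the aged one (SD, n = 4 each). This log2 change of -1.53 ± 0.38 (SE), or 2.88-fold lower, had an adjusted p = 0.0877 by limma. The groups touched, since replicate 3 of 3M (9.23) lay just under replicate 4 of 29M (9.33), and the other 3 young arrays lay above all aged ones. Within slides 1, 2 and 3 the aged arrays differed from the young ones by -0.97, -2.24 and -1.81, the second being 1 array against 1. The direction held in all 16 alternative fits (-1.86 to -1.22), but the call held in 6 of them. It was lost without any single 29M array or without replicate 2 or 4 of 3M (adjusted p 0.108 to 0.221), with the slide as a fixed block (adjusted p = 0.139) and in both fits on processed signals (adjusted p = 0.159 and 0.104).

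**Figure D2:**
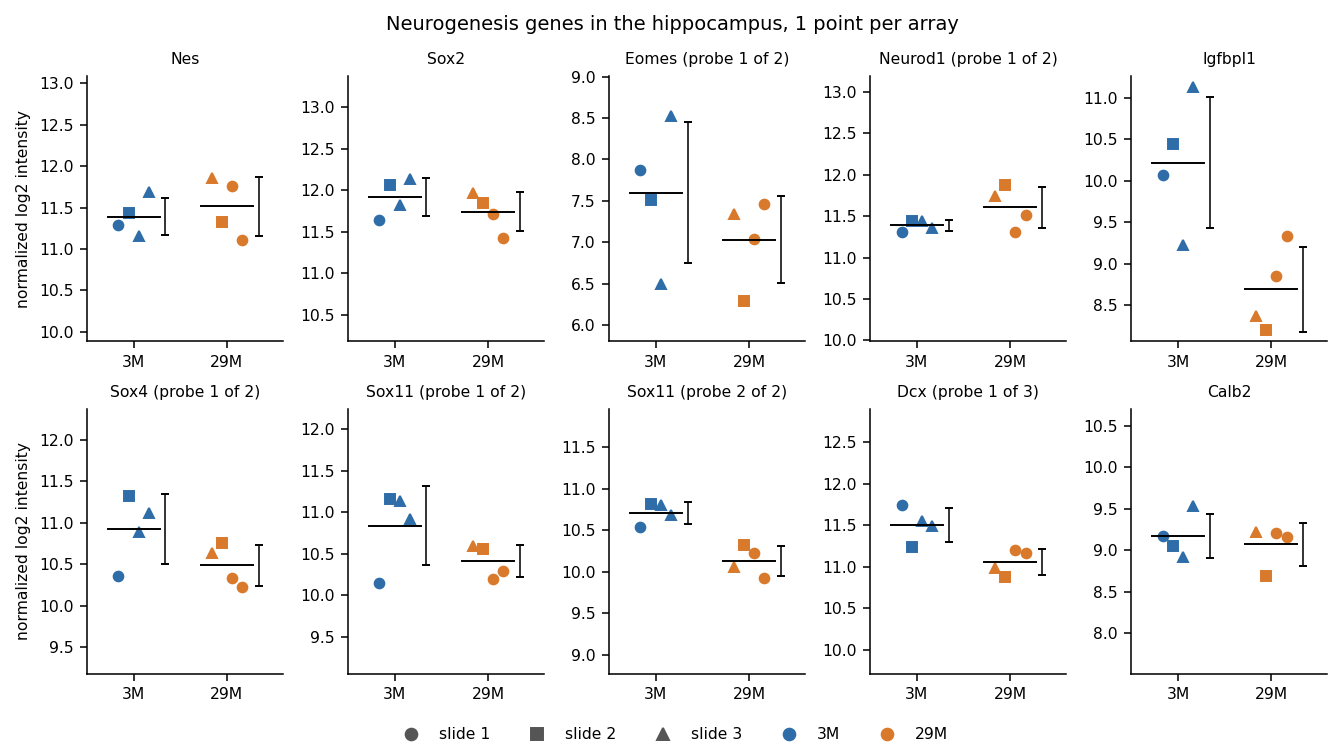
Normalized log2 intensity (y axis, the same span but a different range in each panel) of the neurogenesis genes in the 4 arrays of 3M (blue) and of 29M (orange), with the group mean (line) and SD (bar) and the slide given by the symbol. For Igfbpl1 3 of the 4 young arrays lie above all aged ones, for the second Sox11 probe and for Dcx all 4 do, and the slide 1 array of 3M is the lowest young array for Sox2, Sox4 and both Sox11 probes.

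Sox11 and Sox4 are closely related transcription factors of the SoxC group that switch on neuronal genes, Dcx among them, in newborn neurons. One Sox11 probe was at 10.53, 10.82, 10.80 and 10.68 in 3M and at 10.06, 10.33, 10.23 and 9.92 in 29M. All aged arrays lay below all young ones. The change was -0.57 ± 0.11 (SE, adjusted p = 0.0390), or 1.49-fold lower, and it was -0.46, -0.49 and -0.68 within slides 1, 2 and 3. This call held in 13 of 16 alternative fits and was lost without replicate 2 or 3 of 3M or replicate 1 of 29M (adjusted p = 0.128, 0.101 and 0.121). The slightly brighter Sox11 probe was at 10.15, 11.16, 11.13 and 10.92 in 3M and at 10.59, 10.56, 10.19 and 10.30 in 29M. Its replicate 1 of 3M lay below all aged arrays, and the change of -0.43 ± 0.21 (SE, adjusted p = 0.350) was not called.

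Sox4 behaved like this brighter Sox11 probe from array to array. It was at 10.35, 11.33, 10.89 and 11.12 in 3M and at 10.63, 10.76, 10.33 and 10.23 in 29M, with replicate 1 of 3M below 2 of the aged arrays. The change was -0.44 ± 0.20 (SE, adjusted p = 0.320), and that of the dimmer Sox4 probe was -0.15 ± 0.14 (SE, adjusted p = 0.630). Replicate 1 of 3M, the array marked for evaluation, decided the call of the brighter probe of each gene. Without it the brighter Sox4 probe (-0.63, adjusted p = 0.0604) and the brighter Sox11 probe (-0.66, adjusted p = 0.0247) were called lower. It shared slide 1 with replicates 3 and 4 of 29M, and these 3 arrays were below the other 5 for Sox2, both Sox4 probes and the brighter Sox11 probe, 4 of the 15 member probes, as they were for 6.26% of all probes. Within slide 1 the brighter Sox11 probe was higher in 29M by 0.10. The part of the slide in these values was not tested beyond the fit with slide as a fixed block, in which Sox4 changed by -0.32, the brighter Sox11 probe by -0.29 and Sox2 by -0.09.

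Dcx encodes doublecortin, a microtubule-binding protein of migrating neuroblasts and the most widely used marker of adult neurogenesis. Its bright probe was at 11.74, 11.24, 11.55 and 11.49 in 3M and at 10.98, 10.87, 11.20 and 11.17 in 29M. All 4 young arrays lay above all 4 aged ones, the closest being replicate 2 of 3M (11.24) and replicate 3 of 29M (11.20). The change was -0.45 ± 0.12 (SE), or 1.37-fold lower, with a 95% confidence interval from -0.72 to -0.18. Dcx missed both thresholds, with adjusted p = 0.109 and a size under 0.5. It was called in 0 of 16 alternative fits, although its direction held in all of them (-0.54 to -0.37) and within slides 1, 2 and 3 (-0.56, -0.37 and -0.54). The other 2 Dcx probes were dim. One was well above background on 1 of 4 arrays in 3M and 2 of 4 in 29M (0.12 ± 0.10, SE, adjusted p = 0.613), and the other was well above background on 0 of 8 arrays, so that it carries no level.

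The promoters of Sox11 and Dcx are shown because these genes had a probe with all aged arrays below all young ones, and that of Sox4 as the relative of Sox11 with a like profile over the arrays. Each run covers 250 bases before the transcription start and 50 after it (GRCm38.p6), 5′ to 3′ on the gene's own minus strand, and capitals mark each CCAAT box, a common promoter element, or its reverse complement ATTGG. Sox11 lies at chr12:27342669-27342968, Sox4 at chr13:28953650-28953949 and the first of 2 Dcx starts at chrX:143933170-143933469.
Sox11: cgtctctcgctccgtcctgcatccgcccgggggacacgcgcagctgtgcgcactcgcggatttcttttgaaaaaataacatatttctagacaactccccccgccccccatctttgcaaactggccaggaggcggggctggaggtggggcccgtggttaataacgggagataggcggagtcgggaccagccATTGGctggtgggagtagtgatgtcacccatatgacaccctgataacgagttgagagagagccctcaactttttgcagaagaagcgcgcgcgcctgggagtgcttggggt
Sox4: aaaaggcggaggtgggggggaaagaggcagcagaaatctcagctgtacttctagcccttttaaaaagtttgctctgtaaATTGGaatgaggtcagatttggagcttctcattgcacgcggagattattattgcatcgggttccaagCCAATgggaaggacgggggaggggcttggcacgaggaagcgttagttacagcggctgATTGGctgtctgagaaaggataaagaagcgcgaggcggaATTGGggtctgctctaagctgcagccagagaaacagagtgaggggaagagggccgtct
Dcx: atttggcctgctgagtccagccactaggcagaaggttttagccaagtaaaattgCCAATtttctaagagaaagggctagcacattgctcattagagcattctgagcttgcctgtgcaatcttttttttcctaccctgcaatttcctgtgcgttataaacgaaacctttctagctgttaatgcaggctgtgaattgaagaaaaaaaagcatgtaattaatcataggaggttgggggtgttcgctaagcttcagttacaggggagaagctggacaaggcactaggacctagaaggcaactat
Sox11 had 1 such box (first base at -60 from the start), Dcx 1 (at -196) and Sox4 4 (at -171, -104, -47 and -8). Of the 7 member genes with a promoter in the table, 5 held a CCAAT box on either strand, against 37.4% of 32851 promoters of the same length. The GC box GGGCGG was found in 4 of the 7 (35.7% of all) and the TATA box TATAAA in that of Dcx alone (13.6% of all). The NeuroD type E-box CAGATG (17.2% of all), the Sox core AACAAT (10.7% of all) and the E2F cores TTGGCGC (2.45% of all) and TTCCCGC (4.60% of all) were in none of the 7 windows, and the Sox core ACAAAG was in that of Sox2 alone (18.7% of all). These counts take the first Dcx window, and the second held that Sox core as well, with a TATA box and a CCAAT box. A match is only a description of these letters.

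Calb2 encodes calretinin, a calcium-binding protein of newly postmitotic granule neurons that mossy cells and some interneurons also make. It was at 9.18, 9.06, 8.92 and 9.53 in 3M and at 9.23, 8.69, 9.20 and 9.17 in 29M. The groups overlapped almost entirely, with a change of -0.10 ± 0.16 (SE, adjusted p = 0.797) and an interval from -0.46 to 0.26. The sign turned without replicate 4 of 3M (0.02) or replicate 2 of 29M (0.03). For Calb2, therefore, no direction can be given.

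Whether the genes changed by different amounts was asked in 10 pairs, by subtracting 1 gene's log2 level from another's in each array, so that the array's own scale cancels. An exact two-sided permutation test over the 70 assignments of the samples cannot give a p below 0.0286. After adjustment over the 10 pairs 0 passed at 0.05, and 0 had an unadjusted p under 0.05. A single pair at that smallest p could not have passed the adjustment, so that the adjusted result decides nothing. The largest gap was that of Igfbpl1 against Sox2. Igfbpl1 minus Sox2 was -1.70 ± 0.66 in 3M and -3.05 ± 0.73 in 29M (SD, n = 4 each). The difference was -1.35 (exact permutation p = 0.0571, adjusted p = 0.286). The change of the brighter Neurod1 probe exceeded that of Sox2 by 0.40 (exact permutation p = 0.0857, adjusted p = 0.286). This gap depends on the probe, since the other Neurod1 probe changed by -0.15 and Sox2 by -0.18. The change of the brighter Sox11 probe differed from that of Sox4 by 0.01 (exact permutation p = 0.943, adjusted p = 0.943), a sign that turned under other settings. The change of Calb2 exceeded that of Dcx by 0.35 (exact permutation p = 0.200, adjusted p = 0.400), and no direction can be given for Calb2 itself. These results do not show that the members changed alike.

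The wider gene lists of the same stages were described with the same calls, on the brightest probe of each gene. Proliferation genes are expressed in dividing cells of any type, and which cells gave their values was not tested. Of 20 proliferation genes 5 fell and 0 rose, beside the 0.648% and 1.57% of all genes, and the list's median log2 change was -0.22. Ccnb1, the mitotic cyclin B1, fell by 0.97 ± 0.15 (SE, adjusted p = 0.0184). Mki67, the standard marker of dividing cells, fell by 0.80 ± 0.13 (SE, adjusted p = 0.0243). Cdk1, the mitotic kinase, fell by 0.72, Ccnd2, a cyclin used by progenitors, fell by 0.71, and Rrm2, a subunit of the enzyme that makes DNA precursors, fell by 0.68 (adjusted p = 0.0661, 0.0398 and 0.0252). For 8 of the 20 genes all aged arrays lay below all young ones, against 5.51% of all probes. The count of called genes fell to 3 without replicate 2 of 3M or replicate 1 of 29M, in both cases through Ccnd2 and Cdk1. Cdk1 was also lost without replicate 4 of 3M, replicate 2 of 29M or replicate 4 of 29M, and in both fits on processed signals. With the replicate number as a block, a pairing that the data did not bear out, the count was 0.

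Of 25 further genes of neuroblasts and immature neurons, 2 fell and 0 rose, beside 0.648% and 1.57% of all genes. Tubb2b, a beta tubulin of growing neurons, fell by 0.97 ± 0.13 (SE, adjusted p = 0.00922), from levels between 15.10 and 15.38 in 3M to levels between 13.97 and 14.50 in 29M. Islr2, a membrane protein of growing axons, fell by 0.57 ± 0.08 (SE, adjusted p = 0.0156). Both were called in all 16 alternative fits. In value 23 of the 25 were lower in 29M, beside 47.1% of all genes, and the median log2 change was -0.14. Among 18 genes of the mature granule neuron 1 fell and 0 rose, beside the same shares of all genes. It was Npnt, an extracellular matrix protein (-0.53 ± 0.13, SE, adjusted p = 0.0861). Its call held in 5 of 16 alternative fits and, with 1 array left out, only without replicate 1 of 3M or replicate 3 of 29M. The median of that list was -0.13. Notch signalling, which keeps stem cells quiescent (18 genes, median -0.05), had no gene called in either direction by limma. Neither had the growth factors of the niche and their receptors (25 genes, median 0.09). At an unadjusted p under 0.05 there were 5 and 7 genes, lower or higher. Of all probes 8.74% were lower and 8.31% higher at that threshold. In other fits 1 gene of a list passed as higher, and these are named after their values were seen. For the niche it was Ccl11, a chemokine, in both fits on processed signals and without replicate 4 of 3M or replicate 2 of 29M, and Tlr2, an innate immune receptor, with bright probes only or without replicate 1 of 3M. For Notch it was Hey2, a target of the pathway, with bright probes only or without replicate 1 of 3M.

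**Figure D3:**
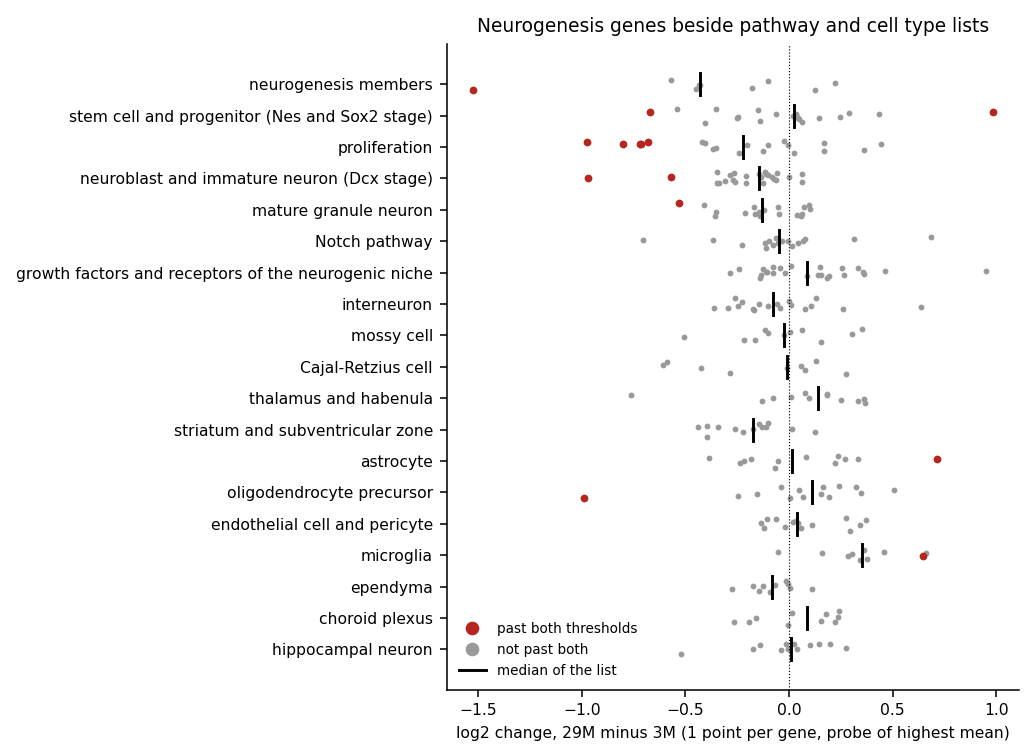
Log2 change from 3M to 29M (x axis) of the 9 neurogenesis genes and of the genes in 18 lists, 1 point per gene on its brightest probe, with the median of each list as a black line and genes past both thresholds in red. The neurogenesis genes have a median of -0.43 and the proliferation list, with 5 genes in red, one of -0.22, while the hippocampal neuron list centres on 0.01.

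Other cell types in the dissected tissue share some of these genes, so that their markers were read on the same arrays. No gene was called by limma in 9 of the 12 cell type lists (interneuron, mossy cell, Cajal-Retzius cell, thalamus and habenula, striatum and subventricular zone, endothelial cell and pericyte, ependyma, choroid plexus and hippocampal neuron), where between 0 and 4 genes per list had an unadjusted p under 0.05. At that threshold 8.74% of all probes were lower and 8.31% higher. Interneuron markers, which bear on Calb2, had a median log2 change of -0.08, with Gad1 at 0.10 and Gad2 at 0.00. Mossy cell markers, which bear on Calb2 too, had a median of -0.03, with Calcrl at -0.51 (adjusted p = 0.206) and Drd2 at -0.10. Among astrocyte genes, which bear on Sox2, Gfap rose by 0.71 ± 0.12 (SE, adjusted p = 0.0222), in all 16 alternative fits, and Aqp4 was at 0.27. In value 6 of the 12 astrocyte genes were lower, beside 47.1% of all genes, and the median was 0.01. Precursors of oligodendrocytes express Sox4 and Sox11 as well. Among their marker genes Gpr17 fell by 0.99 ± 0.21 (SE, adjusted p = 0.0544), while Pdgfra was at 0.00, Cspg4 at 0.16 and the median of 14 genes at 0.11. Among microglia genes Trem2 rose by 0.65 ± 0.13 (SE, adjusted p = 0.0462), with Aif1 at 0.34, Cx3cr1 at 0.30 and the median of 10 genes at 0.35. The call of Gpr17 was lost without replicate 2 or 4 of 3M or replicate 1 or 2 of 29M, and that of Trem2 without replicate 2 of 3M or replicate 1 or 2 of 29M. Neither passed when slide entered the fit as a fixed block. The astrocyte, oligodendrocyte precursor and microglia lists had 1 called gene each, where 0.648% of all genes were called lower and 1.57% higher. The part of these cells in the changes of the member genes and of the proliferation genes was not tested.

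The thalamus and habenula list, with Tcf7l2 at -0.13 and Slc17a6 at 0.18, had a median of 0.14. Vessel cell markers, which bear on Nes, had a median of 0.04, with Pecam1 at 0.04 and Cldn5 at 0.29. The striatum and subventricular zone list marks tissue outside the hippocampus that holds neuroblasts of its own. Its median was -0.18, and 11 of 13 genes were lower in value, beside 47.1% of all genes. Its mean over genes ran from -0.16 to 0.32 around the mean of all arrays in 3M and from -0.24 to -0.02 in 29M, with the highest value in replicate 4 of 3M. That array was also the highest for Igfbpl1. The part of such tissue in the Igfbpl1 result was not tested.

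Replicates 3 and 4 of 3M were the lowest and the highest young array for Igfbpl1 and Eomes, and also for Nes and Calb2. The same held for the lists of cells that line the ventricle and for the thalamus and habenula list (-0.29 and 0.15). In 29M replicate 4 was the highest aged array and replicate 2 the lowest for Igfbpl1 and Eomes. The same held for the thalamus and habenula list (0.31 and -0.10) and the Cajal-Retzius list (0.09 and -0.26). For the ependyma and choroid plexus lists replicate 3 was the highest aged array, and for Nes and Calb2 it was replicate 1. The mean of the 10 ependyma genes was 0.12, 0.31, -0.87 and 0.59 in replicates 1 to 4 of 3M and between -0.16 and 0.07 in 29M. The mean of the 10 choroid plexus genes was -0.07, 0.38, -0.84 and 0.44 in 3M and between -0.24 and 0.18 in 29M. That of the 9 Cajal-Retzius genes, early-born neurons that make Reln and Trp73 and in part Eomes, was 0.09, 0.09, -0.18 and 0.31 in 3M and between -0.26 and 0.09 in 29M. All genes of the ependyma, choroid plexus and Cajal-Retzius lists were well above background on all 8 arrays. In value 8 of 10 ependyma genes, 4 of 10 choroid plexus genes and 5 of 9 Cajal-Retzius genes were lower in 29M. Of all genes 47.1% were lower in value. The median log2 changes of the 3 lists were -0.08, 0.09 and -0.01. At an unadjusted p under 0.05 there were 0, 0 and 3 genes, the 3 of the Cajal-Retzius list all lower. Of all probes 8.74% were lower and 8.31% higher at that threshold. The first genes of the lists were not called, with Foxj1 at 0.11, Ccdc153 at -0.07, Ttr at -0.01, Kl at 0.02, Reln at 0.13 and Trp73 at 0.06. Without replicate 3 of 3M, Igfbpl1 changed by -1.86 (adjusted p = 0.0466), and without replicate 4 of 3M by -1.22 (adjusted p = 0.141). The part of the dissection in these values was not tested. The hippocampal neuron list stayed between -0.03 and 0.04 on all arrays.

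**Figure D4:**
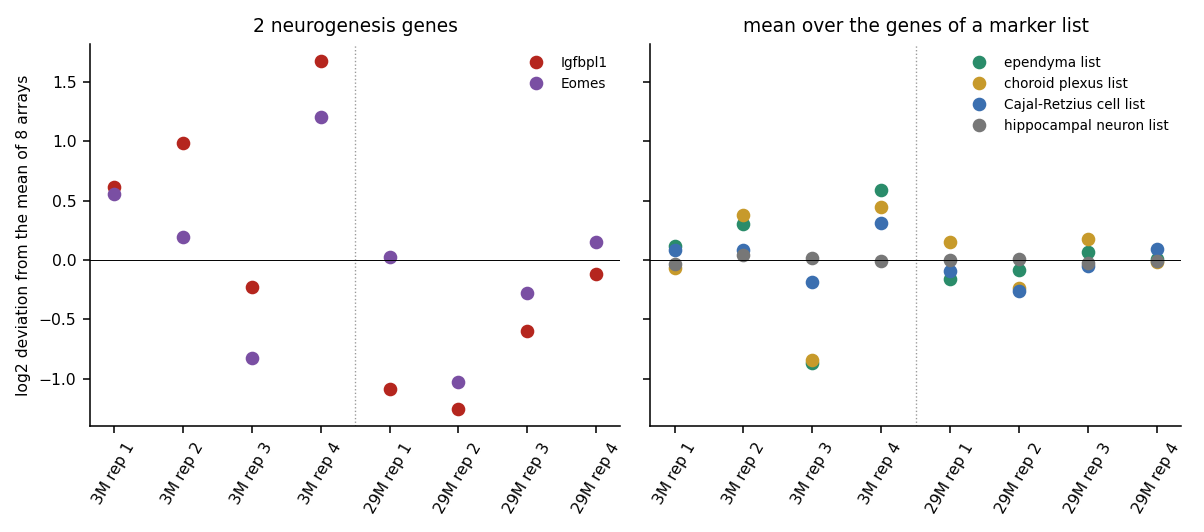
Deviation of log2 level from the mean of all 8 arrays (y axis) in each array (x axis, the dotted line separates 3M from 29M), for Igfbpl1 and Eomes on the left and for the mean over the genes of 4 cell type lists on the right. Replicate 3 of 3M is the lowest young array for Igfbpl1, Eomes, ependyma (-0.87) and choroid plexus (-0.84), and replicate 4 of 3M is the highest (0.59 and 0.44 for the lists).

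The genes whose level followed that of Dcx most closely were sought among the 15912 genes other than members with a bright probe, over the 8 arrays, as a description. They were Cep68, a centrosome protein (r = 0.988), Olfr469 (r = 0.970), Wdr90 (r = 0.968), the olfactory receptor gene Olfr904 (r = 0.967) and 1700026D11Rik (r = 0.966). The 8 points share the difference between ages, and after each group's mean was taken out r lay between 0.90 and 0.96. Of these 5, Olfr904 was called lower (-0.74 ± 0.16, SE, adjusted p = 0.0572).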

How the data were processed

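Per the labels, polyA RNA of 8 hippocampus samples was labelled with Cy3 and hybridised to 1 array each. The authors deposited scanner output as linear spot intensity, not normalized between arrays. The median spot intensity took the place of the mean that had been planned as input. A table of the whole series, also intensities, was not used, since each of its 8 columns matched an array's local background (tolerance 0.001), in 7 of them that of another sample's array and in 4 of these of the other age. The authors' own methods gave the normalization, model and thresholds.

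Control spots and outlier spots (127 to 190 per array) were left out. A variance stabilising model (own implementation in R 4.3.3, trimming quantile 0.9) and limma 3.58.1 (lmFit, eBayes, two-sided, no covariates) were run over 39408 probes with at least 3 usable arrays per group. This scale compresses the changes of dim probes. Adjustment was by Benjamini-Hochberg over all of them. On simulated data for this comparison (39408 probes, 200 bright ones changed by a log2 change of 1) 95.5% were recovered and 10.7% of calls were false. The simulated noise was independent between arrays, with no effect of slide or dissection. Smaller changes, such as those of Sox11 and Dcx, were not simulated.

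Probes were named by accession through RefSeq (GRCm38.p6), which matched 26055 of 39429. The arrays were designed on another build (mm9), so the only coordinates given are those of the RefSeq promoter windows, on GRCm38.p6. Igfbpl1 and Calb2 had no promoter entry. Slides come from the barcodes.

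The members, the lists and the tests were chosen with earlier results of these data known. Named genes were the members, the called genes of each list (at most 4 in each direction, by size), the first 2 genes of each cell type list and the 5 genes most like Dcx. Rrm2, the fifth called proliferation gene, was named after its values were seen. Sfrp3 and Drd1a had no matched probe. Drd2, Reln, Dlx1, Dlx2, Dlx5 and Dlx6 each stand in 2 lists.

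Alternatives were the processed signal scaled to its 75th percentile, normexp (offset 50) with quantile normalization, the model on processed signals, outlier spots kept, bright probes only, slide as a fixed or random block or within slides, the replicate number as a block, each array left out, and an adjusted p under 0.05.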

Additional observations from a re-analysis of the deposited data

Results flagged for a closer look

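Of 66 groups of 4 arrays examined (30 of member probes and 36 of list means), 2 had an array far from the other 3, where chance gives about 1 in 20, or 3.3. Replicate 2 of 29M was low for Calb2 (8.69 against 9.17, 9.20 and 9.23), with a gap of 0.887 of the group's range. For the Dcx probe that was well above background on 3 of 8 arrays, replicate 4 of 29M was low (5.75 against 6.10, 6.12 and 6.14), with a gap of 0.893 of the range.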

How the results depend on the processing

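The number of member genes called lower, 2 (Igfbpl1 and Sox11), fell to 1 (Sox11) with the processed signal scaled to its 75th percentile, the variance stabilising model on processed signals, slide as a fixed block, and an adjusted p under 0.05. Leaving out 1 array gave between 0 and 3, with 0 without replicate 2 of 3M or replicate 1 of 29M and 3 (Sox4 added) without replicate 1 of 3M. The 9 genes called lower over the 4 stage lists became 5 to 10 when 1 array was left out. The replicate numbers did not pair the samples (correlations of deviations from -0.26 to 0.22). With the replicate number as a block, 1 member gene (Sox11) and 2 genes of the stage lists were called lower, 0 of them in the proliferation list. With 1 array left out, Calb2 (-0.10) ranged from -0.18 to 0.027, its difference from Sox2 (0.08) from -0.058 to 0.24, and Sox11 minus Sox4 (0.01) from -0.041 to 0.12. On processed signals the last was -0.024 (75th percentile) and -0.023 (variance stabilising model). The cause of these shifts was not tested. Eomes and the 2 lesser Dcx probes are limited by signal over background, with 3 member probes not well above it on all arrays.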
